A study of Mus musculus with 8 samples.

Results

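The sperm coat genes described here encode epididymal proteins that are secreted onto, or transferred to, the surface of maturing sperm. They were chosen by name: Cd52, Spag11a, Spag11b, Teddm1, Mfge8, Spam1, Ces5a, Eddm3b and Npc2. All 9 symbols were found among the 24059 rows of the deposited gene table. RNA of the whole caput epididymis was sequenced in 4 libraries of wild-type mice (WT) and 4 of Nell2-/- mice (Nell2-KO), both on C57BL/6N, at an age of 14 weeks. The labels give no further treatment or allele, and no statement that each replicate was a separate animal, so the spread behind each p-value is that between samples and may be technical.

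Sperm leave the testis unable to fertilise and acquire that ability while they pass along the epididymal duct. Its epithelium releases proteins and vesicles into the lumen, and some of these are adsorbed or inserted into the sperm membrane, where they act in membrane stability, zona binding, cholesterol balance or defence against microbes. NELL2 is a secreted protein made by germ cells of the testis that reaches the caput through the lumen and acts on the receptor tyrosine kinase ROS1 of its most proximal stretch, the initial segment. The comparison of the genotypes asks how the caput transcriptome differs without that signal.

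Levels are given as CPM, the counts of a gene relative to its library's total, scaled between libraries with edgeR's TMM factors, as mean ± SD with n = 4 per group. Library totals were 2073811 to 2517387 counts in WT and 801112 to 6256204 in Nell2-KO, so that Nell2-KO replicates 3 and 4 carried the most precise values and Nell2-KO replicate 1 the least. Libraries stood apart from their groups. Nell2-KO replicate 1 stood at 0.496 of the mean WT share of reads in genes, where Nell2-KO replicates 2, 3 and 4 stood at 1.02 to 1.03, and the nuclear RNA Malat1 was at 7158 CPM in WT replicate 2, where WT replicates 1, 3 and 4 had 985 to 1129 CPM. All 9 caput epithelium markers checked had reads in all 8 libraries. Of these, 3 rose, 4 fell (among them Lcn10, 38.0-fold) and 2 had no call, and their summed level, most of it Gpx5, was 102040 to 113450 CPM in WT and 99109 to 122920 CPM in Nell2-KO. All 12 initial segment markers fell in Nell2-KO, and their summed level was 34881 to 43314 CPM in WT and 396 to 590.02 CPM in Nell2-KO. Of 6 smooth muscle markers, 5 had no call and 1 fell, Actg2, from 1018.5 ± 133 to 24.4 ± 5.63 CPM. Of 5 endothelium markers, 3 fell, with a sum of 85.7 to 119 CPM in WT and 41.0 to 66.2 CPM in Nell2-KO. Of 4 basal cell markers 2 fell, with a sum of 320.2 to 367 and 159 to 269 CPM. Among 6 fibroblast markers 1 rose and 1 fell, and among 4 tested clear cell markers 1 rose and 1 fell. Over all genes tested, 15.0% were called, 6.24% as higher and 8.71% as lower.

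Of the 8 members that passed the filter on low counts, 2 fell in Nell2-KO (Mfge8 and Teddm1), 3 rose (Ces5a, Eddm3b and Spag11a), and 3 did not pass the test (Npc2, Cd52 and Spag11b). Spam1 had 4 reads in all and was not tested. The background was high: edgeR's quasi-likelihood test called 15.0% of 11062 genes at a Benjamini-Hochberg adjusted p under 0.05, 6.24% as higher and 8.71% as lower in the knockout. Members that were tested had a median log2 fold change of 0.38, and all tested genes one of 0.03. WT and Nell2-KO values were fully separated for 4 tested members (Mfge8, Teddm1, Ces5a and Eddm3b), as they were for 22.1% of the genes tested. Without Nell2-KO replicate 1 and WT replicate 2, 5 members were again called, in a fit that called 27.2% of all genes, with Npc2 (adjusted p = 0.0431) and without Spag11a (adjusted p = 0.151).

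**Figure D1:**
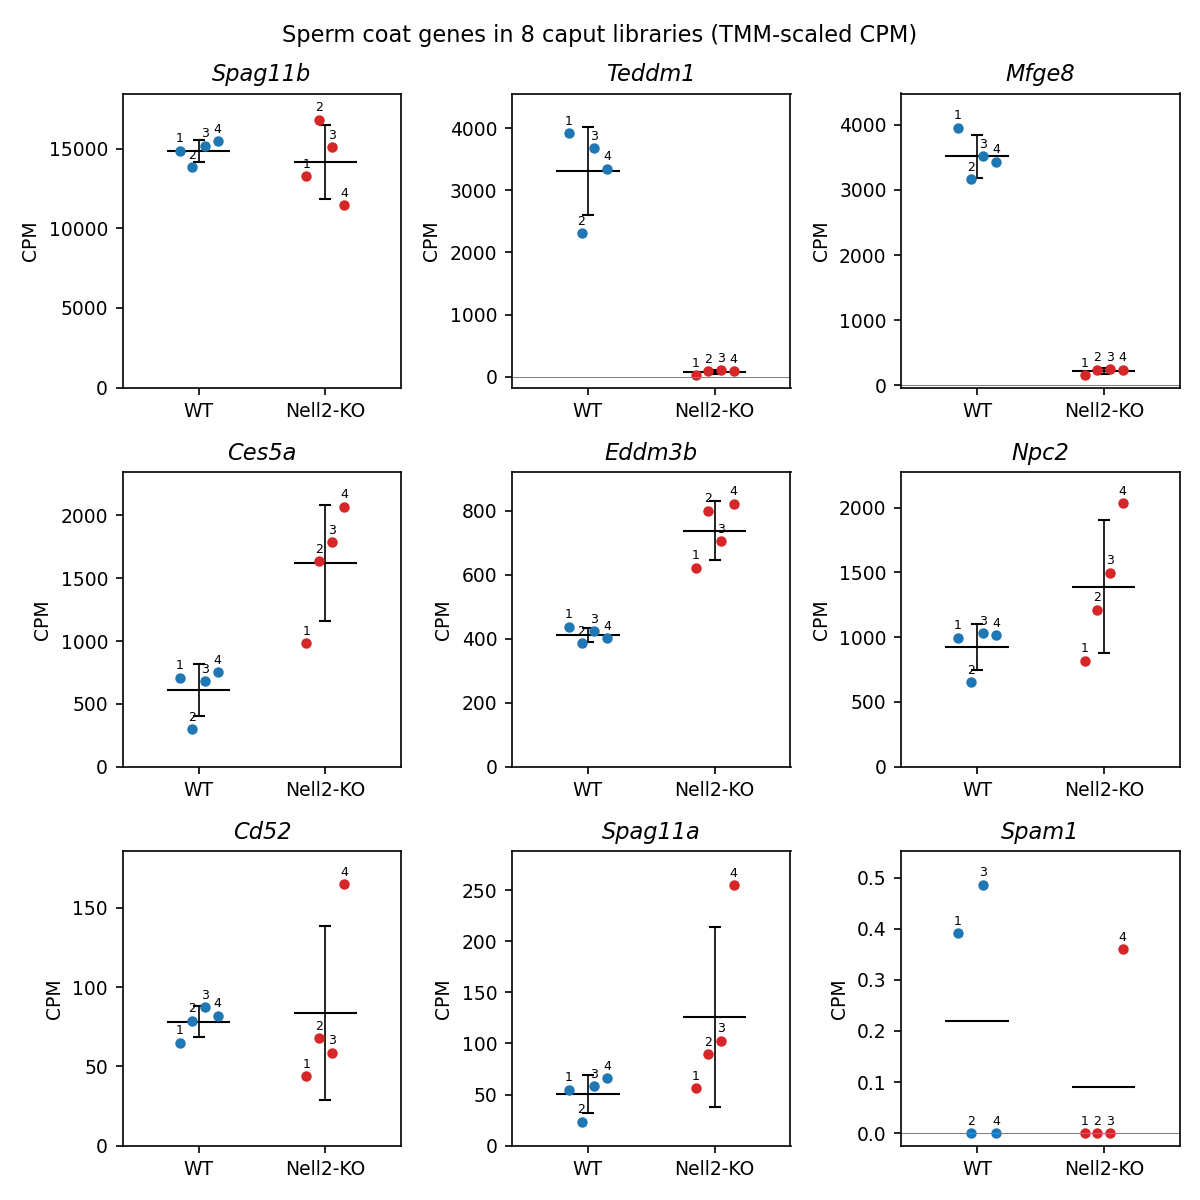
TMM-scaled CPM of each member (vertical axis, linear, own range per gene) in WT (blue) and Nell2-KO (red), 1 point per library numbered by replicate, with the group mean (line) and SD (bar, not drawn for Spam1). Mfge8 and Teddm1 sit near the axis in all 4 Nell2-KO libraries, and Ces5a and Eddm3b are higher in all 4 Nell2-KO libraries than in any WT library. Ces5a, Eddm3b, Cd52, Spag11a and Npc2 are all highest in Nell2-KO replicate 4.

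Mfge8 encodes MFG-E8, also called SED1 or lactadherin, a secreted protein with EGF-like and discoidin domains that coats mouse sperm in the proximal epididymis and takes part in binding to the zona pellucida. Its gene is found on chromosome 7 at 79133768 to 79149060 of mm10, minus strand. It was at 3955, 3165, 3517 and 3431 CPM in WT replicates 1 to 4 and at 156, 241, 249 and 244 CPM in Nell2-KO replicates 1 to 4. Every Nell2-KO value was below every WT value, and Nell2-KO replicate 1 was the lowest of all. The mean fell from 3517 ± 328 to 223 ± 44.3 CPM, a 15.7-fold fall in the edgeR fit (log2 fold change -3.97 ± 0.20, SE, edgeR adjusted p = 6.9e-08). Of all genes tested, 1.64% were called with a fall of at least 8-fold.

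Teddm1 encodes transmembrane epididymal protein 1, a multipass membrane protein named for its epididymal expression. Its gene, named Teddm1a in the annotation, is found on chromosome 1 at 153891742 to 153893058, plus strand. It was at 3916, 2306, 3672 and 3345 CPM in WT replicates 1 to 4 and at 22.5, 93.1, 101 and 91.0 CPM in Nell2-KO replicates 1 to 4. The lowest WT value, in replicate 2, was still far above the highest Nell2-KO value. The mean fell from 3310 ± 709 to 77.0 ± 36.6 CPM, a 41.4-fold fall (log2 fold change -5.37 ± 0.39, SE, edgeR adjusted p = 1.3e-06).

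By log2 fold change, Teddm1 ranked 63 and Mfge8 ranked 114 from the lowest among the 11062 genes tested. The log2 ratio of Teddm1 to Mfge8 counts within a library was -0.46 to 0.06 in WT and -2.79 to -1.30 in Nell2-KO, a Nell2-KO minus WT difference of -1.61, with Teddm1 the more reduced (2-sided exact permutation test over the 8 libraries, p = 0.0286, the smallest this design allows). Adjusted over the 2 pairs of members compared in this way, p was 0.0571. These pair tests were not planned, and the adjustment does not cover the choice of pairs. Both falls went with the fall of the initial segment markers, whose part in the result was not tested. In bulk tissue, fewer cells of a type and less RNA per cell cannot be told apart. Leaving out single libraries moved the log2 fold change between -4.02 and -3.85 for Mfge8 and between -5.52 and -5.12 for Teddm1, with all calls kept.

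Sequence windows were taken from 250 bases before to 50 bases after the RefSeq transcription start (GRCm38.p6). They cover Mfge8, Teddm1 and the Teddm neighbours of Teddm1 described next. Of these genes, Mfge8, Teddm1 and Teddm2 fell and Teddm1b rose, and the choice was made with these changes known. Capitals mark AGGAAG, the core bound by ETS factors of the PEA3 type, or its reverse complement.

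Mfge8, minus strand, chr7:79149011-79149310: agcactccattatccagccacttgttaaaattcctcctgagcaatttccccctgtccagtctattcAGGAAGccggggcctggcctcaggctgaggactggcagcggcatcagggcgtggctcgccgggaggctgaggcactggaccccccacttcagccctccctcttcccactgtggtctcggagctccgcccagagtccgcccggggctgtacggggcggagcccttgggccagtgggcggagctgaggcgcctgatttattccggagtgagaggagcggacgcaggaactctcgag

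Teddm1, plus strand, chr1:153891396-153891695: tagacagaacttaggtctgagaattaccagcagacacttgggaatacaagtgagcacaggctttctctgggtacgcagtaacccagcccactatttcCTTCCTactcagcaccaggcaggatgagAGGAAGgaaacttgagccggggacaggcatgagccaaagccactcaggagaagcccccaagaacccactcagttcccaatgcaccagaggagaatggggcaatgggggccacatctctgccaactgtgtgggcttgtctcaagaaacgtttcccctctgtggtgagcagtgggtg

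Teddm2, minus strand, chr1:153851146-153851445: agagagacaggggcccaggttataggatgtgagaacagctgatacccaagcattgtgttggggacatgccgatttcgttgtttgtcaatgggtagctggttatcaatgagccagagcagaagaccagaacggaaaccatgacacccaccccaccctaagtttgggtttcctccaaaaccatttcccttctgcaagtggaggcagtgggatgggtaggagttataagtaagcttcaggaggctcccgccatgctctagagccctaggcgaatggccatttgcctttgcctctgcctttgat

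Teddm1b, plus strand, chr1:153874095-153874394: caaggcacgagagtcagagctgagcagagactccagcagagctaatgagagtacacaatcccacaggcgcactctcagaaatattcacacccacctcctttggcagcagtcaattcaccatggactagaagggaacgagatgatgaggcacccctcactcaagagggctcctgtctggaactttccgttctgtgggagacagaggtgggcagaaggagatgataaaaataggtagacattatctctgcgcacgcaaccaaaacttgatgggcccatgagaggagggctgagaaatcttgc

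Mfge8 held this motif once, with its first base at -184 from the start, and Teddm1 held it at -153 (reverse complement) and at -125. The windows of Teddm2, which fell 540-fold in the edgeR fit, and of Teddm1b, which rose, did not contain these letters. The part of the motif in the level changes was not tested. The Teddm2 window follows its RefSeq start and lies near the lower end of its GENCODE span, 153849542 to 153900228 on the minus strand. The upper end of that span, where a minus-strand gene begins, was not searched. Searched on both strands, AGGAAG was present in 35.4% of the 32851 RefSeq windows of the same length. The window of Spam1 also held it once, and those of Ces5a, Eddm3b and Npc2 did not. TGTTCT, a half-site of the androgen receptor, was present once in the windows of Ces5a, Eddm3b and Teddm2 and in 19.0% of all windows, and TATAAA was found in none of the windows of Mfge8, Teddm1, Teddm2, Teddm1b, Spam1, Ces5a, Eddm3b or Npc2, against 13.6% of all windows. The motifs do not overlap one another in these windows. A match is a description of the sequence, not a site shown to be bound.

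Teddm1 is one of 3 closely spaced Teddm genes with reads in the caput, of which 2 fell and 1 rose. The annotated span of Teddm2, on the minus strand, contains both Teddm1b and Teddm1. Exons of Teddm2 do not overlap those of Teddm1, and overlap with those of Teddm1b was not checked. An exon of Teddm1 overlaps one of Gm38352, a gene model on the opposite strand. Teddm2, listed in the deposited table as 5830403L16Rik, was at 4704, 4099, 4836 and 4192 CPM in WT and at 25.3, 4.36, 5.48 and 7.37 CPM in Nell2-KO replicates 1 to 4. It fell 540-fold in the edgeR fit (adjusted p = 6.9e-08), more than Teddm1, although Nell2-KO replicate 1 was here the highest Nell2-KO library rather than the lowest. Teddm1b, listed as Gm5531 and 14870 bases from Teddm1, was at 3001, 3069, 2780.2 and 2924 CPM in WT and at 7980.0, 4437, 4652 and 4022 CPM in Nell2-KO. Teddm1b therefore rose in every Nell2-KO library, by 0.84 ± 0.22 on the log2 scale (SE, edgeR adjusted p = 0.0202). That call ended without any single WT library (the highest edgeR adjusted p was 0.0743, for WT replicate 3) and with the replicate number as a block (adjusted p = 0.0588), while leaving out a Nell2-KO library kept it. Teddm3, listed as 2310042E22Rik, had 0 reads in all libraries.

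The reads were 36 bases long, and 20.05% of the 36-base windows of the Teddm1 transcript also occur in Teddm1b, so part of their reads could have been assigned to either gene. The Nell2-KO level of Teddm1 was 77.0 CPM beside 5273 CPM of Teddm1b, and the part of shared windows in that remainder was not tested. Teddm2 shared no window with another gene in the sense direction. All window searches compared transcripts in that direction only, so matches to genes on the opposite strand were not searched. Glul, which encodes glutamine synthetase and lies 6885 bases from Teddm1, was at 4106 ± 319 CPM in WT and rose to 9558 ± 2866 CPM in Nell2-KO (log2 fold change 1.22 ± 0.21, SE, edgeR adjusted p = 0.0016).

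**Figure D2:**
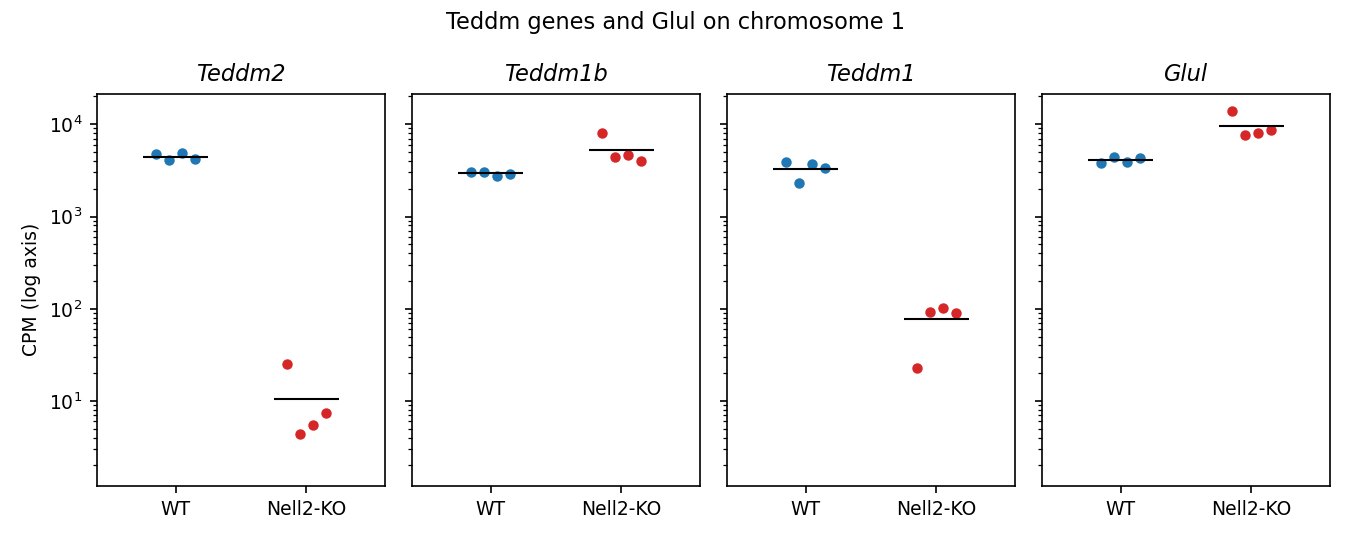
TMM-scaled CPM (log axis) of Teddm2, Teddm1b, Teddm1 and Glul, 1 point per library, with lines at the group means. Teddm2 drops from 4099 to 4836 CPM to 4.36 to 25.3 CPM and Teddm1 to 22.5 to 101 CPM, while Teddm1b and Glul are higher in all 4 Nell2-KO libraries.

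Ces5a encodes a secreted carboxylesterase, known as cauxin from cat urine, that is released by the epididymal epithelium into the fluid around sperm. It lies on chromosome 8 at 93499064 to 93535830, on the minus strand. Its level was 707, 299.97, 683 and 752 CPM in WT replicates 1 to 4 and 983, 1638, 1787 and 2069 CPM in Nell2-KO replicates 1 to 4. All Nell2-KO libraries were above all WT libraries, with WT replicate 2 well under the other WT libraries. The mean rose from 611 ± 209 to 1619 ± 460.3 CPM, 2.66-fold (log2 fold change 1.41 ± 0.30, SE, edgeR adjusted p = 0.0064). Without WT replicate 2 the log2 fold change was 1.19 and stayed called. Of its 36-base windows, 8.47% also occur in transcripts of 97 other genes. Of all genes tested, 2.99% were called with a rise of at least 2-fold.

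Of 18 carboxylesterase relatives found in the table, 3 passed the filter and 1 was called, higher. Ces1d, a lipid-hydrolysing carboxylesterase, went from 24.8 ± 5.37 to 49.4 ± 22.6 CPM (edgeR adjusted p = 0.0314), a call that ended in 7 of the 8 fits without single libraries (the highest adjusted p was 0.109, for Nell2-KO replicate 3). Ces1f was at 4.60 ± 1.48 and 6.53 ± 6.92 CPM and Ces2e at 4.36 ± 2.11 and 3.58 ± 2.29 CPM in WT and Nell2-KO, and neither passed the test. Ces5a was thus the carboxylesterase of the caput with by far the most reads in both genotypes.

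Eddm3b encodes epididymal protein 3 beta, a small secreted protein whose human counterpart, HE3, is made by the epididymis and resembles the ribonuclease A family. Its gene lies on chromosome 14 at 51114426 to 51117807, on the plus strand, between the ribonuclease genes Rnase4 and Rnase6. It was at 438, 387, 423 and 402 CPM in WT replicates 1 to 4 and at 622, 801, 704 and 822 CPM in Nell2-KO replicates 1 to 4. The groups were well separated, and the members' smallest SD relative to the mean in Nell2-KO was found here, at 12.5% against a median of 25.9% over all genes tested. The mean rose from 412 ± 22.4 to 737 ± 92.1 CPM, 1.79-fold (log2 fold change 0.84 ± 0.14, SE, edgeR adjusted p = 0.0014). The calls of Ces5a and Eddm3b held without each single library, and both ended with limma on the authors' RPKM (adjusted p = 0.419 and 0.617). RPKM values are relative to the reads of each library, and that fit applied no TMM factors to them. It called 4.15% of all genes, 49 higher and 410 lower, and its median log2 fold change over all genes was -0.22.

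Npc2 encodes the soluble cholesterol-binding protein of the lysosome, known in the human epididymis as the major secretory protein HE1, and is among the proteins thought to adjust sperm cholesterol. It lies on chromosome 12 at 84754562 to 84773152, on the minus strand. It was at 997, 654, 1028 and 1015 CPM in WT replicates 1 to 4 and at 818, 1212, 1497 and 2034 CPM in Nell2-KO replicates 1 to 4. The groups overlapped, because Nell2-KO replicate 1 lay below 3 of the WT libraries. The log2 fold change was 0.59 ± 0.26 (SE, edgeR adjusted p = 0.161), with a 95% interval, not adjusted for the number of genes, from 0.03 to 1.15. Without Nell2-KO replicate 1 it was 0.78 (edgeR adjusted p = 0.0126, in a fit that called 24.7% of all genes), and without Nell2-KO replicate 4 it was 0.35 (adjusted p = 0.393).

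Of 9 tested genes that work with Npc2 in moving cholesterol, 1 rose, 1 fell and 7 had no call, beside 15.0% called among all genes, and their median log2 fold change was 0.12. Gramd1b, which encodes a sterol transporter between plasma membrane and endoplasmic reticulum, fell 3.34-fold, from 86.0 ± 9.85 to 24.5 ± 5.89 CPM (edgeR adjusted p = 2.7e-05). Lamp1, a lysosomal membrane glycoprotein gene, rose from 1137 ± 96.7 to 1741 ± 231 CPM (edgeR adjusted p = 0.0174), a call that ended without any single WT library (the highest adjusted p was 0.057, for WT replicate 1). Npc1, the membrane partner to which NPC2 hands cholesterol, went from 33.3 ± 5.92 to 20.6 ± 5.54 CPM and did not pass (edgeR adjusted p = 0.0579), but was called without Nell2-KO replicate 1 (adjusted p = 0.0221). Of the 3 relatives that share the lipid-binding fold of NPC2, Gm2a, the GM2 ganglioside activator, rose from 125 ± 10.8 to 217 ± 61.1 CPM (edgeR adjusted p = 0.0156). Its call ended without WT replicate 1, WT replicate 3 or Nell2-KO replicate 3 (the highest adjusted p was 0.0667, for WT replicate 3). Ly96 (7.24 ± 1.94 and 14.2 ± 9.51 CPM) and Ly86 (7.19 ± 3.52 and 5.58 ± 1.30 CPM), partners of Toll-like receptors, did not pass.

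Spag11a and Spag11b are adjacent genes of the beta-defensin region of chromosome 8 whose products, known from the rat as Bin1b and from humans as EP2, are secreted antimicrobial peptides that bind sperm. Spag11b lies at 19140759 to 19143010 and Spag11a at 19157886 to 19159578, both on the plus strand. Spag11b was at 14872.5, 13853, 15178 and 15480.2 CPM in WT replicates 1 to 4 and at 13266, 16819, 15068 and 11442 CPM in Nell2-KO replicates 1 to 4. The Nell2-KO values lay on both sides of the WT values. Its log2 fold change was -0.07 ± 0.17 (SE, edgeR adjusted p = 0.846), with a 95% interval from -0.43 to 0.29, that is a fold of 0.741 to 1.23.

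Spag11a was far less abundant, at 54.8, 23.5, 58.3 and 66.1 CPM in WT replicates 1 to 4 and 56.3, 89.5, 103 and 255 CPM in Nell2-KO replicates 1 to 4. Nell2-KO replicate 1 fell within the WT range, and Nell2-KO replicate 4 was more than 2-fold above any other library. The log2 fold change was 1.36 ± 0.42 (SE), with an edgeR adjusted p of 0.0486 just under the threshold. This call ended when any single library was left out, with a log2 fold change of 0.75 to 1.59 and an adjusted p of 0.0611 to 0.158, the highest without Nell2-KO replicate 4. Spag11a made up 0.169% to 0.425% of the counts of the pair in WT and 0.423% to 2.18% in Nell2-KO. The log2 ratio of Spag11a to Spag11b counts was 1.27 higher in Nell2-KO, with overlapping groups (2-sided exact permutation test, p = 0.0571, also when adjusted over the 2 pairs).

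Between them the Spag11 transcripts share no 36-base window in the annotation, but 37.9% of the windows of Spag11a and 2.65% of those of Spag11b lie in Gm45826, a gene model that spans both. The treatment of such reads by the authors' counting is not stated, so the small Spag11a count is uncertain.

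Cd52 and Spam1 encode proteins held in the membrane by a glycosylphosphatidylinositol (GPI) lipid anchor, which lets them pass from epithelial vesicles to the sperm surface. CD52 is a very short, heavily glycosylated peptide that is found on lymphocytes as well as on sperm. Cd52, on chromosome 4 at 134082448 to 134095082 (minus strand), was at 65.0, 78.8, 87.5 and 82.1 CPM in WT replicates 1 to 4 and at 43.7, 67.6, 58.8 and 165 CPM in Nell2-KO replicates 1 to 4. In Nell2-KO, 2 libraries lay below all WT libraries and replicate 4 lay above all of them. The log2 fold change was 0.16 ± 0.33 (SE, edgeR adjusted p = 0.818), with a 95% interval from -0.57 to 0.89, and it was -0.44 without Nell2-KO replicate 4 (adjusted p = 0.168).

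Lymphocyte markers were near 0 in the libraries. Of the 10 found in the table, none passed the filter, Ms4a1 had 0 reads, and their summed level was 1.46 to 4.40 CPM in WT and 0 to 5.82 CPM in Nell2-KO, with 2.52 CPM in Nell2-KO replicate 4, where Cd52 was highest. Macrophage and dendritic cell markers, some of whose cells also carry CD52 in humans, summed to 208 to 259 CPM in WT and 139 to 204 CPM in Nell2-KO, with 149 CPM in Nell2-KO replicate 4. Of the 12 tested, 1 fell (Lyz2, edgeR adjusted p = 0.0336) and 0 rose, and that call ended in 7 of the 8 fits without single libraries (the highest adjusted p was 0.12, for WT replicate 1). An exon of Cd52 overlaps one of Crybg2 on the opposite strand, and Crybg2, listed as Aim1l, was at 0 to 0.979 CPM. The part of these cell types and of this overlap in the Cd52 level was not tested.

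Spam1 encodes PH-20, a hyaluronidase of the sperm surface and acrosome that is made in the testis and also reported from the epididymis. It lies on chromosome 6 at 24791188 to 24801048, on the plus strand. It had 1, 0, 1 and 0 reads in WT replicates 1 to 4 and 0, 0, 0 and 2 reads in Nell2-KO replicates 1 to 4. With 2 reads over each group, Spam1 was under the level of 3 reads, a limit of 0.339 CPM for all WT counts pooled and 0.211 CPM for those of Nell2-KO (counting error only), so no fold is given. Of its 6 hyaluronidase relatives, Hyal1 and Hyal2, the widely expressed enzymes of hyaluronan breakdown, passed the filter and neither was called. Hyal2 was at 11.6 ± 1.04 and 11.3 ± 5.81 CPM, Hyal1 at 8.40 ± 1.88 and 7.77 ± 3.30 CPM, and the sperm hyaluronidase Hyal5 at 0.121 and 0.128 CPM in WT and Nell2-KO. Transcripts of germ cells and sperm were present at a summed level of 70.2 to 150 CPM in WT and 70.8 to 207 CPM in Nell2-KO, with Smcp, which encodes a mitochondria-associated sperm protein, at 18.1 to 123.9 CPM, and of 19 such markers 6 passed the filter and 0 were called. Among acrosomal genes, Zpbp was at 4.76 ± 1.44 and 4.06 ± 1.92 CPM, and Acr, Acrv1, Spaca1, Spaca3 and Izumo1 reached at most 1.41 CPM in any library.

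Of 27 tested genes that build, attach and remodel the GPI anchor, 2 rose, 3 fell and 22 had no call, and the median log2 fold change was 0.12, beside 0.03 and 15.0% called for all genes. Piga, the catalytic subunit of the first step of anchor synthesis, rose from 19.6 ± 1.94 to 36.1 ± 2.67 CPM (edgeR adjusted p = 0.0016). Pigo, an ethanolamine phosphate transferase of a late step, fell from 19.1 ± 4.62 to 6.51 ± 2.71 CPM (edgeR adjusted p = 0.0035). Pgap1, which removes an acyl chain from the finished anchor, fell from 186 ± 26.8 to 126 ± 8.85 CPM (edgeR adjusted p = 0.0154), a call that ended without Nell2-KO replicate 3 (adjusted p = 0.0628).

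Of 9 other small GPI-anchored surface protein genes tested, 2 rose, 1 fell and 6 had no call. Their median log2 fold change was 0.20, beside 0.03 and 15.0% called for all genes. Cd24a, a mucin-like peptide that resembles CD52 in size and anchoring, rose 2.41-fold, from 301 ± 38.2 to 729 ± 258 CPM (edgeR adjusted p = 0.0018). Ly6d, a Ly6 family gene, rose from 1.89 ± 1.09 to 8.94 ± 2.84 CPM (edgeR adjusted p = 0.0019). Its WT level was near the floor: WT replicates 2 and 4, at 0.979 and 0.912 CPM, lay under the level of 3 reads (1.468 and 1.368 CPM). Prnp, which encodes the prion protein, fell 2.18-fold, from 399 ± 24.7 to 183 ± 14.9 CPM (edgeR adjusted p = 6.9e-05).

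Of 4 genes for an Mfge8 relative and its integrin receptors, 2 were tested and 0 were called. The relative, Edil3, did not pass the filter on low counts, so its change was not tested. It was at 0.489 to 1.46 CPM in WT and at 0 CPM in all Nell2-KO libraries. Itgav, the integrin alpha V subunit that MFG-E8 binds through its RGD motif, was at 111 ± 29.4 and 109 ± 30.7 CPM, and Itgb5, a beta partner of it, at 27.4 ± 4.28 and 27.8 ± 3.80 CPM in WT and Nell2-KO. The change of Mfge8 thus stood beside receptor subunits whose means differed by less than their SD.

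Among 13 other genes for epididymal proteins that bind sperm, 11 were tested, of which 4 rose, 3 fell and 4 had no call. The median log2 fold change was 0.27, beside 0.03 and 15.0% called for all genes. Those 3 with the smallest adjusted p are described. Cst11, a cystatin-type protease inhibitor gene, which is also one of the initial segment markers, fell 47.7-fold, from 4248 ± 928 to 89.2 ± 22.7 CPM (edgeR adjusted p = 4.3e-08). Clu, the chaperone clusterin, rose 2.82-fold (edgeR adjusted p = 0.00059). Pate4, a Ly6-like protein gene, rose from 4.10 ± 1.54 to 16.1 ± 3.46 CPM (edgeR adjusted p = 0.00079).

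**Figure D3:**
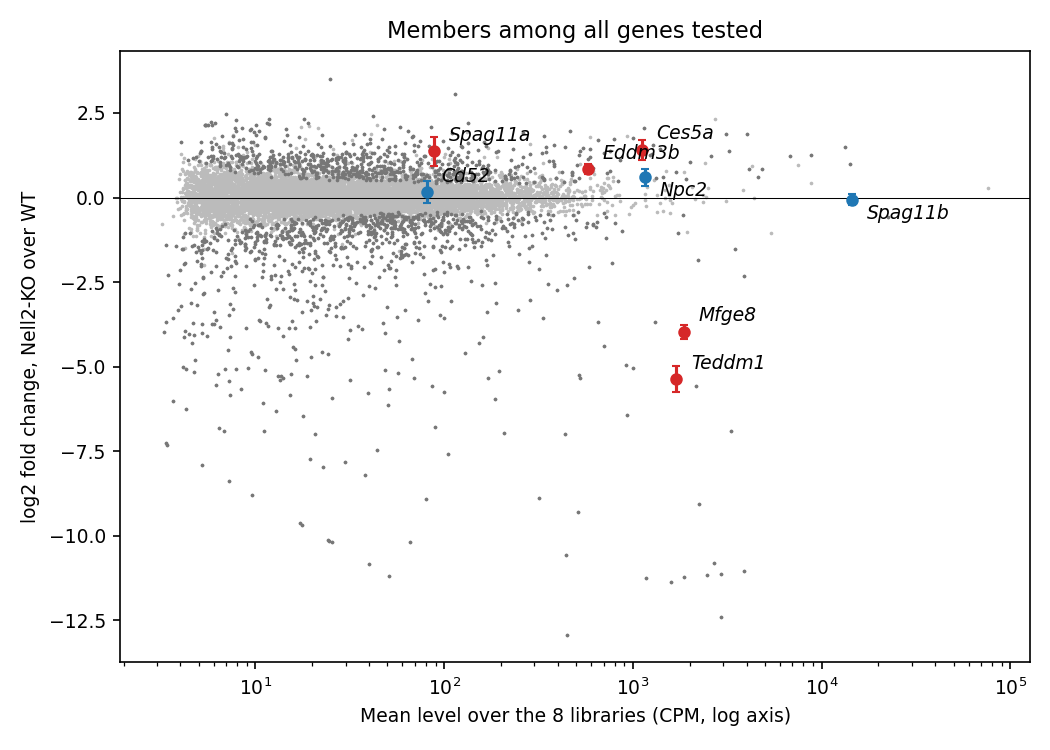
Log2 fold change of Nell2-KO over WT (vertical axis) against the mean CPM over the 8 libraries (log axis) for all genes tested, with called genes in dark grey. The 8 tested members are shown with their SE, in red where called and in blue where not: Teddm1 (-5.37) and Mfge8 (-3.97) lie far below 0, and Ces5a (1.41), Spag11a (1.36) and Eddm3b (0.84) above it.

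Per transcript length, using the authors' RPKM, the order of the members in WT was Spag11b (5283 ± 620 RPKM), Teddm1 (1461 ± 395), Mfge8 (1026 ± 159), Eddm3b (206 ± 24.7), Ces5a (203 ± 78.2), Npc2 (177 ± 44.6), Cd52 (96.1 ± 13.3), Spag11a (73.4 ± 30.0) and Spam1, listed at 0 to 0.144 RPKM. The ranges of Teddm1 and Mfge8 overlapped, as did those of Eddm3b, Ces5a and Npc2, while the lowest values of Ces5a and Npc2, both in replicate 2, reached into the range of Cd52, which overlapped that of Spag11a. Spag11b ranked 3 to 9 among the 24059 symbols in the single WT libraries and 3 to 6 in Nell2-KO. Teddm1 ranked 23 to 30 in WT and 722 to 3754 in Nell2-KO, and Mfge8 ranked 29 to 34 and 403 to 872. Ranks within a library do not depend on scaling between libraries. A gene also moves up where genes above it fall, as the initial segment markers did, whether or not its own level differs. Ces5a moved from rank 97 to 256 in WT to rank 38 to 86 in Nell2-KO, and Eddm3b from 112 to 121 in WT to 51 to 88.

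The make-up of the coat transcripts therefore differed between the genotypes. Teddm1 held 13.6% to 19.1% of the members' summed RPKM in WT and 0.173% to 0.641% in Nell2-KO. Mfge8 held 11.3% to 12.9% in WT and 0.799% to 1.14% in Nell2-KO. Spag11b held 59.1% to 66.6% in WT and 65.4% to 82.9% in Nell2-KO, where the lowest share was that of replicate 4. Shares sum to 100%, so those of the other members rise where Teddm1 and Mfge8 fall, whether or not their own levels differ. In Nell2-KO, Ces5a held 5.64% to 10.9%, Eddm3b 5.09% to 6.60%, Npc2 2.73% to 6.20% and Spag11a 1.41% to 5.83%. The members together made up 2.05% to 2.54% of all counts in WT and 1.42% to 2.203% in Nell2-KO, and without Spag11b 0.681% to 1.03% and 0.240% to 0.583%.

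**Figure D4:**
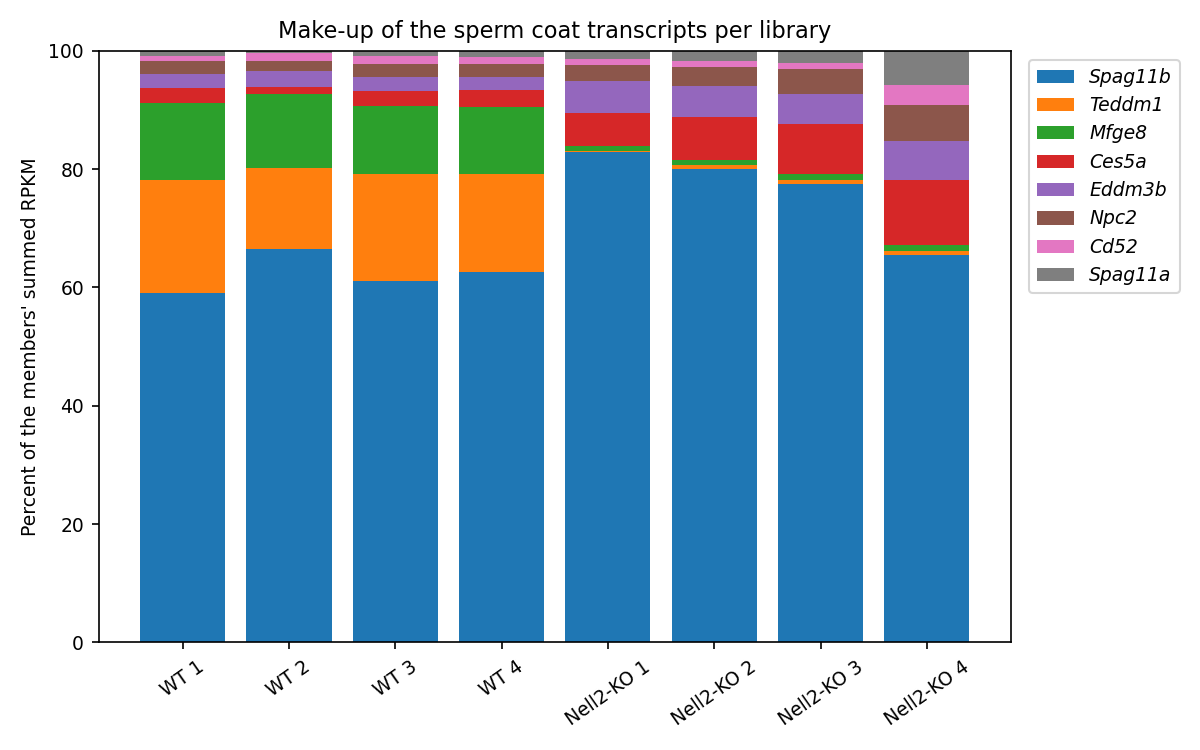
Share of each member in the summed RPKM of the members (vertical axis, percent) in each library, stacked; Spam1 is too low to be seen. Teddm1 and Mfge8 are visible blocks in the 4 WT libraries and nearly vanish in the 4 Nell2-KO libraries. Nell2-KO replicate 4 has more Ces5a, Eddm3b, Npc2, Cd52 and Spag11a than the other 3.

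The spread within groups also differed among the members. In WT, the SD was 4.76% of the mean for Spag11b and 5.44% for Eddm3b, against 37.0% for Spag11a and 34.2% for Ces5a, with a median of 15.3% over all genes tested. In Nell2-KO the largest spreads were those of Spag11a (70.1%) and Cd52 (65.8%), which lay at the 96.1 and 94.5 percentile of all genes tested, and for both replicate 4 was the highest library.

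The genes with the level pattern most like that of each member were found by the root mean square difference of centred log2 CPM over the 8 libraries, among 5316 genes of at least median level. The measure is a description only, since genes that separate the genotypes alike will resemble each other. For Teddm1 they were Slc45a3, a sugar transporter family gene (difference 0.19), and P4ha2, a collagen prolyl hydroxylase gene (0.36). For Mfge8 they were Glb1l2, a beta-galactosidase-like gene (0.23, from 2434 ± 296 to 189 ± 64.9 CPM), and Litaf (0.23). Ces5a was most like the fucosyltransferase gene Fut1 (0.14) and the AP-1 factor gene Fosl2 (0.20), and Eddm3b most like Lrrc8c (0.10) and Pdk2 (0.12). Npc2 was closest to Maged1 (0.10), Spag11a to Cyb561 (0.21) and Cd97 (0.23), Cd52 to the metallothionein gene Mt2 (0.24) and Tspan9 (0.25), and Spag11b to Hes1 (0.09) and H1f0 (0.09).

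**Figure D5:**
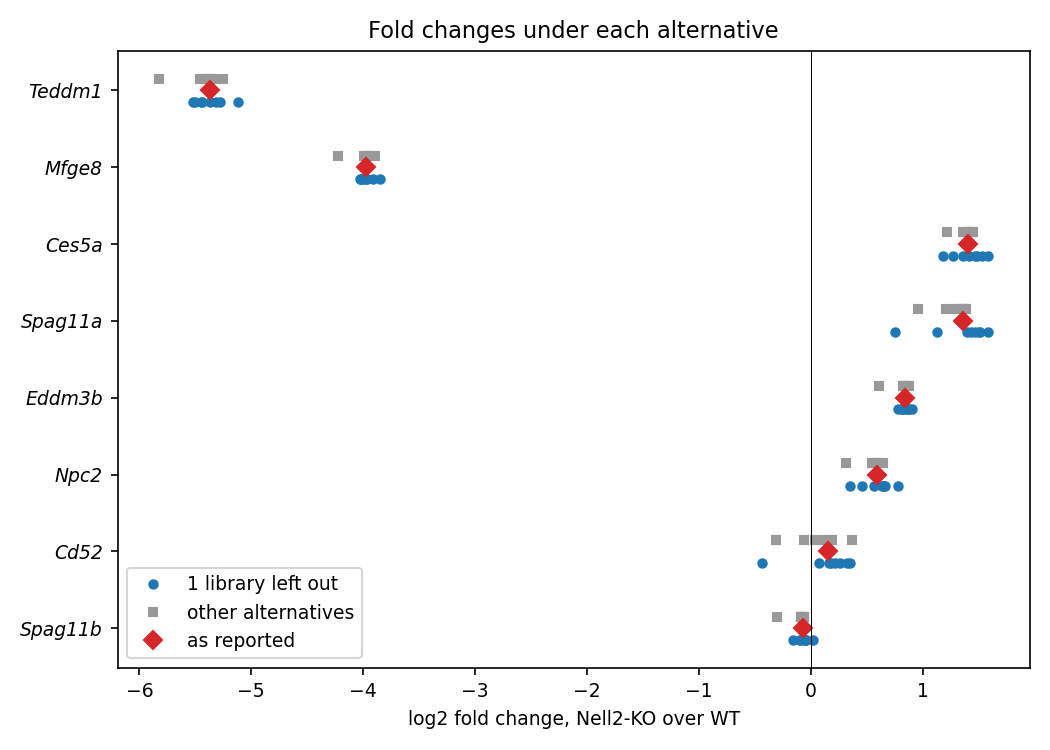
Log2 fold change of Nell2-KO over WT (horizontal axis) of each tested member as reported (red diamond), with each single library left out (blue circles), and under the other alternatives (grey squares). Teddm1 and Mfge8 stay far below 0 in every fit, Ces5a and Eddm3b stay above it, Spag11a ranges from 0.75 to 1.59 when a library is left out, and Cd52 and Spag11b cross 0.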

How the data were processed

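Caput RNA was amplified in 1 linear round, made into stranded mRNA libraries and read as single 36-base reads on an Illumina GAIIx, per the labels' protocols. Per the file headers, the table the authors deposited holds raw counts and RPKM values for each gene symbol. Bowtie2 2.2.0, CASAVA 1.8.2, FastQC 0.11.2 and mm10 are named by the submitters' processing notes. How reads were counted (tool, gene models, strand, reads with several matches) is not given in the sources used. Groups and replicate numbers came from the sample titles.

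The main test was that of edgeR 4.0.16 under R 4.3.3 (TMM, default expression filter, robust quasi-likelihood F test, no covariates), with Benjamini-Hochberg adjustment over all 11062 genes tested and a threshold of 0.05. Standard errors are the log2 fold change divided by the root of F, and intervals use its degrees of freedom. The fit was tested on simulated counts. Alternatives used DESeq2 1.42.0, limma 3.58.1 on counts and on log2(RPKM + 0.1), other scalings, no filter, a replicate block and fewer libraries. The authors' RPKM served for comparisons between genes. Reads carry no molecular identifiers, so floors of 3 counts (0.457 to 4.22 CPM in a single library) cover counting error only. Pairs of libraries within a group differed by a chi-square per degree of freedom of 1.27 to 16.1, the lowest for WT replicates 3 and 4, which were kept as separate samples.

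The members and gene lists were chosen with earlier results of these data known. Named were all members, up to 3 tested genes of each list by adjusted p, and the 2 genes most like each member, of which 1 is not reported here. Lyz2, Hyal5, Smcp, Acr, Acrv1, Zpbp, Gpx5, Lcn10, Actg2, Gnao1, Isg20, Abhd2, Spaca1, Spaca3, Izumo1, Ms4a1, Aim1l (Crybg2), Teddm3, Edil3, Malat1, Glul, Rnase4, Rnase6, Isca2 and Defb12 fall outside that rule and were named for their role or position. Positions came from GENCODE M21 on mm10, and sequences from RefSeq windows on GRCm38.p6, the same assembly, matched for 6 of the 9 members (Teddm1 through its synonym Teddm1a).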

Additional observations from a re-analysis of the deposited data

Results flagged for a closer look

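Within a group of 4 libraries, 5 of the 18 sets of member values held a library far from the other 3, where the gap to the nearest value exceeded Dixon's 95% critical value. Chance flags about 1 in 20 such groups, but these sets share libraries and are not independent, so the number flagged is a description only. In Nell2-KO replicate 1, Teddm1 was at 22.5 CPM (16 reads) and Mfge8 at 156 CPM (111 reads), below the other Nell2-KO libraries. That library had the lowest total and the lowest share of reads in genes, 0.496 of the WT mean, and the part of these in the low values was not tested. Both falls were called without it. In WT replicate 2, Ces5a was at 299.97 CPM and Npc2 at 654 CPM, below the other WT libraries. WT replicate 2 also held 7158 CPM of Malat1, whose part was not tested, and Ces5a was called without it. Spam1 was at 0.360 CPM in Nell2-KO replicate 4, which is 2 reads, against 0 reads in the other Nell2-KO libraries. Any read beside such zeros is flagged, so this flag carries no information on Spam1.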

How the results depend on the processing

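The falls of Teddm1 and Mfge8 were called in all 16 alternatives run, and the rises of Ces5a and Eddm3b in all but limma on the authors' RPKM. That fit called 2 members, both lower, and 459 of 11062 genes. The number of members called was 4 or 5 in the other alternatives, and 4 or 5 without each single library. Without single libraries, 1204 to 2790 genes were called in all, the highest without Nell2-KO replicate 1, and without both Nell2-KO replicate 1 and WT replicate 2, 3085. The call of Spag11a ended in 13 of 16 alternatives. Directions without a call reversed for some genes. On the authors' RPKM the log2 fold change was -0.31 for Cd52, -0.077 for Ces1f, -0.40 for Hyal1, -0.46 for Hyal2 and -0.19 for Itgb5. Without single libraries it ran from -0.44 to 0.35 for Cd52, -0.15 to 0.020 for Spag11b, -0.48 to 1.17 for Ces1f, -0.74 to 0.056 for Ces2e, -0.055 to 0.17 for Hyal1, -0.24 to 0.14 for Itgav and -0.040 to 0.14 for Itgb5. The causes were not tested. With the replicate number as a block, 1184 genes and 5 members were called and Cd52 was at -0.060. The labels do not say whether equal numbers pair the libraries. Deviations of same-numbered libraries correlated at -0.28, -0.17, 0.17 and 0.16. With 4 libraries per group this cannot settle pairing, so the block is given as an alternative only. Depth limits Spam1 in all libraries and Nell2-KO replicate 1 most.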

Other observations

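Of 16 genes next to the members, the nearest tested gene on each side, 5 rose and 1 fell, beside 15.0% called among all genes. The risers include Glul and Teddm1b beside Teddm1. Gnao1, 274135 bases from Ces5a, rose from 11.4 ± 0.740 to 28.9 ± 8.96 CPM (edgeR adjusted p = 0.0017). Isg20, 213371 bases from Mfge8, rose from 16.0 ± 4.69 to 59.0 ± 40.7 CPM (edgeR adjusted p = 0.0146), a call that ended when replicate 2 of WT, or replicate 1 or 4 of Nell2-KO, was left out (the highest adjusted p was 0.119, for Nell2-KO replicate 1). Abhd2, on the other side of Mfge8, fell from 861 ± 57.7 to 577 ± 128 CPM (edgeR adjusted p = 0.0495), and its call ended in 7 of the 8 such fits (the highest adjusted p was 0.147, for WT replicate 3). Isca2, an iron-sulfur cluster gene that begins 98 bases from Npc2 on the other strand, had 47.9 ± 8.59 CPM in WT against 34.6 ± 5.08 in Nell2-KO and did not pass the test (edgeR adjusted p = 0.112). Defb12, a beta-defensin gene 25919 bases from Spag11b, rose from 546 ± 234 to 1167 ± 327 CPM (edgeR adjusted p = 0.0432), and its call ended in 7 of the 8 fits without single libraries (the highest adjusted p was 0.159, for Nell2-KO replicate 1). Rnase4 and Rnase6, which lie 8274 and 6100 bases on either side of Eddm3b, had log2 fold changes of -0.34 and 0.59 and did not pass the test (edgeR adjusted p = 0.162 and 0.148), although Rnase4 was called without Nell2-KO replicate 1 (adjusted p = 0.0318).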
